A study of Mus musculus with 6 samples.

Results

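The genes described here work in the last stretch of the cell cycle, from G2 through mitosis to the separation of the daughter cells. The list named 60 mouse genes of the mitotic spindle, the kinetochore and the G2/M transition. Membership was set by symbol: a listed gene counted when the authors' deposited comparison table had a row for it. That table held 15138 genes and 59 of the 60, and fold changes and p-values are no part of the rule. The exception was Plk4, the kinase that starts centriole duplication, whose reads numbered 10, 4 and 7 in the wild type libraries and 7, 1 and 5 in the knockout libraries, in replicate order. It was too low to test. The other 59 passed the filter on low counts and were tested here among 16856 genes.

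RNA was sequenced from cells washed off the colon of unchallenged mice aged 2 months. One group of 3 libraries was labelled wild type and the other group of 3 Lingo3-/-, called knockout here. Lingo3 is a gene for a transmembrane protein with leucine-rich repeats. For strain, sex and the way the allele was made, nothing is given in the sources used here. The labels do not say whether libraries came from separate animals, so p-values describe only the spread among the samples, and this spread may be technical. The label of wild type replicate 1 gives a wash with 5 mM EDTA and 2.5 mM DTT, the labels of the other 5 libraries give EDTA alone, and the shared protocol text gives both reagents. Lingo3 itself was hit by 3, 3 and 1 reads in wild type and by 2, 0 and 1 reads in knockout, at or under the floor of 3 counts in every library, so it does not check the genotype labels.

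The lining of the colon is renewed by cells that divide in the lower part of the crypts and stop dividing as they move to the surface. In such a cell, Cdk1 bound to A-type and B-type cyclins drives entry into mitosis, the Aurora and Polo-like kinases build the spindle, and the kinetochores attach chromosomes to it. The spindle checkpoint holds back the anaphase-promoting complex until every chromosome is attached. That complex then marks cyclin B and securin for destruction, separase opens the cohesin rings, and the cell divides.

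Many genes of this group are transcribed late in the cycle through short promoter elements. The cell cycle genes homology region, or CHR, is bound by MuvB complexes, which repress as DREAM in resting cells and activate with B-Myb and Foxm1 in G2, and CCAAT boxes bind NF-Y. RefSeq promoters of build GRCm38.p6, each from 250 bases before to 50 bases after the transcription start, were present for 51 of the 60 genes, 4 of them with more than 1 start. The letters TTTGAA or TTCGAA, the usual forms of the CHR, were searched on both strands, and so was CCAAT. A CHR match was present for 36 of the 51 genes (70.6%) and for 17% of the 11465 tested genes with a promoter. CCAAT was present for 37 (72.5%) against 42%, and both together for 31 (60.8%) against 6.9%. A CHR match lying wholly between 75 bases before and 25 bases after the start was present for 26 members (51%) and for 4.59% of tested genes. The E2F core, an element of genes of the earlier G1/S wave, was searched as TTCCCGC and, in its other forms, as TTGGCGC, then as the form TTCGCGC and lastly as the form TTGCCGC. It was present for 14 members (27.5%) against 18.1%. CHR and CCAAT matches shared bases at 1 place in the member promoters, and CHR and E2F matches at none (0). These matches describe letters in a window, not binding.

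Of the 5 promoters printed here, those of Cdk1, Ccnb2 and Ube2c belong to genes that rose in the knockout and hold both motifs, that of Nusap1 belongs to a gene that rose and holds neither, and that of Mki67 belongs to a gene that holds both and did not pass the test. Each reads 5′ to 3′ on the strand of the gene, and capitals mark the CHR and CCAAT letters of either strand. A CHR written as TTCAAA, or a CCAAT box written as ATTGG, lies on the opposite strand. Positions below count from the annotated start to the first base of a match.
Cdk1, chr10:69352863-69353162, minus strand: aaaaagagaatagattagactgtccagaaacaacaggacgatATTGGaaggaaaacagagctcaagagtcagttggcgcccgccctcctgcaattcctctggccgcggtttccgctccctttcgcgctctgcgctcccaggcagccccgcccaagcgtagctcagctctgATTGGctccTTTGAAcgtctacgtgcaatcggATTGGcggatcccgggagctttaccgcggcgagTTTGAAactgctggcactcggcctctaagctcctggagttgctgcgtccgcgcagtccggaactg
Ccnb2, chr9:70421505-70421804, minus strand: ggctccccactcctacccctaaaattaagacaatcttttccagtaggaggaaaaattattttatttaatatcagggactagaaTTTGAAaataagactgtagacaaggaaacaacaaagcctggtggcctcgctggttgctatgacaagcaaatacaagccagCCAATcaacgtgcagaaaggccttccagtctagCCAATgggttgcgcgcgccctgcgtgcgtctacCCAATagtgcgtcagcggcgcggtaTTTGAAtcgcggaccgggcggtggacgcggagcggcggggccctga
Ube2c, chr2:164769679-164769978, plus strand: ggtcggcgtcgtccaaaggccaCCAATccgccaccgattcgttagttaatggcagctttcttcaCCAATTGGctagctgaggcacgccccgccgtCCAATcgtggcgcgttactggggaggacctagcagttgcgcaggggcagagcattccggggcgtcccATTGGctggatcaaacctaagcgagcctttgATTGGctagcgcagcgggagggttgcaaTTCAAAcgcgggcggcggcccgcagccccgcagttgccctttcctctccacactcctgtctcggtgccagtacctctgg
Nusap1, chr2:119618048-119618347, plus strand: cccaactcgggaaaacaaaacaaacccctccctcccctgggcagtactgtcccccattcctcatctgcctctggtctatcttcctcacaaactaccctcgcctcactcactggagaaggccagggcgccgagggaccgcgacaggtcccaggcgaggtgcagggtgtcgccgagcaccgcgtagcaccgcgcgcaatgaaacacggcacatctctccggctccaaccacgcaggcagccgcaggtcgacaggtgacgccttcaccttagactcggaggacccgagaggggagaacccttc
Mki67, chr7:135716330-135716629, minus strand: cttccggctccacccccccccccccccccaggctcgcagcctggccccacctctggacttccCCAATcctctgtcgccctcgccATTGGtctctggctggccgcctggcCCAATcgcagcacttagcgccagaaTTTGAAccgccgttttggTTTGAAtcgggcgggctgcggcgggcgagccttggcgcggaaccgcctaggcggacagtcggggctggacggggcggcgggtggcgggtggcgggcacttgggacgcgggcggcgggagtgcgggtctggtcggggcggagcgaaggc

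In the Cdk1 window the CHR matches began 71 and 15 bases before the start, with CCAAT matches 208, 80 and 48 bases before it. Ccnb2 had CHR matches 167 bases before and 4 bases after the start and CCAAT matches 87, 54 and 21 bases before it. Ube2c had a CHR match 29 bases before the start and 6 CCAAT matches. The CHR matches of Mki67 lay 116 and 98 bases before the start, farther from the start than the nearest CHR match of Cdk1, Ccnb2 or Ube2c.

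A part of the mitotic genes rose in the Lingo3-/- libraries, and none of them fell. Of 59 tested, 21 rose, 0 fell and 38 did not pass an adjusted p of 0.05 by edgeR's quasi-likelihood test. The share that rose, 35.6%, stands beside 9.43% of all 16856 tested genes. Against the 0 members that fell, 5.97% of all genes did. None (0) of the members was lower even at an unadjusted p under 0.05, and DESeq2 and limma-voom also gave 0. The median log2 fold change over the 59 was 0.40, with a range of -0.06 to 1.04, while the median of all tested genes was -0.03. A positive fold change was found for 55 members, and 47.2% of all genes had one.

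Most changes were below 2-fold. Ccna2 and Ube2c, at 2.06-fold and 2.01-fold, were the 2 members above it. For 29 members every knockout library lay above every wild type library, a pattern seen for 19.7% of all tested genes. These were the 21 that rose and 8 that did not pass. An unadjusted p under 0.05 was reached by 13 of the 38 that did not pass. The share of all tested genes at that unadjusted p is not given here, so this count cannot be set against a background. The deposited table of the authors, made with DESeq2 from the same libraries, has 24 members higher at an adjusted p under 0.05, beside 10% of its genes. Those 24 hold all 21 genes called here together with Ccnb1, Kif11 and Ncaph. The count of 21 depended on single libraries: it was 14 when wild type replicate 1 was left out and 10 when wild type replicate 3 was. Leaving out knockout replicate 2 gave 9, and leaving out knockout replicate 3 gave 13. The share of all tested genes that rose, 9.43% with every library, also changed in these fits. It was 10% without wild type replicate 1 and 5.61% without wild type replicate 3. Without knockout replicate 2 it was 5.05%, and without knockout replicate 3 it was 3.98%. Scaling to library totals alone, which moved the median of all genes by 0.28, gave 41 members beside 32.1% of all genes. The call was kept without each single library for 8 genes, namely Top2a, Ccna2, Ccnb2, Cdc20, Ube2c, Nusap1, Ect2 and Smc2. Their highest edgeR adjusted p in the fits without 1 library ran from 0.0106 for Ccna2 to 0.0429 for Ect2 and 0.05 for Smc2. The value for Smc2 is rounded and lay just under the threshold.

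**Figure D1:**
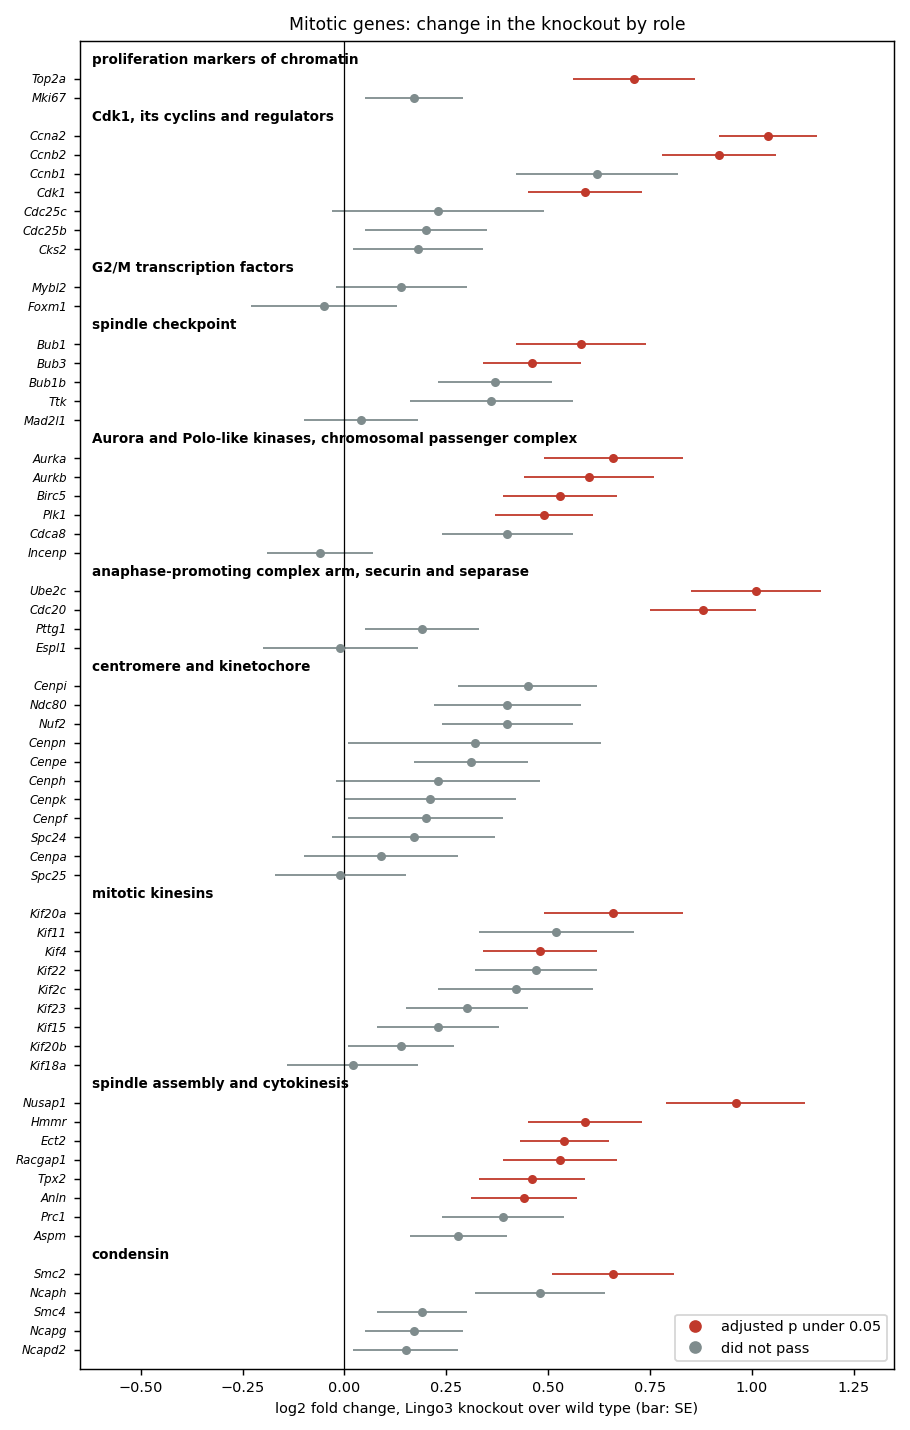
Log2 fold change of each of the 59 tested mitotic genes, knockout over wild type, with its SE as a bar, grouped by role and coloured by whether the edgeR adjusted p was under 0.05. The 21 genes that rose lie between 0.44 and 1.04. The centromere and kinetochore block holds 0 of them among 11 genes, beside 9.43% of all tested genes, and 10 of its values are positive.

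Other transcripts moved with genotype in the same libraries, where 9.43% of all tested genes rose and 5.97% fell. Markers of the crypt base and of progenitors rose for 10 of 17 tested genes and fell for 0, with a median log2 fold change of 0.53. Their summed level ran from 788 to 817 CPM (read counts scaled to a common library size with TMM factors) in wild type and from 1149 to 1172 CPM in knockout, without overlap. Slc12a2, an ion transporter of crypt cells, rose by 1.13 on the log2 scale. Its mean went from 166 to 364 CPM, so this 1 gene makes up a large part of the rise in the sum. Of the 17 fold changes 16 were positive, and the lowest was -0.74. Surface colonocyte markers had a median of -0.34 over 20 genes, with 1 higher, the guanylin family gene Guca2b at 0.71, and 1 lower, the carbonic anhydrase gene Car4 at -0.68. Without wild type replicate 2, 6 of the 20 fell, and without wild type replicate 1, wild type replicate 3 or knockout replicate 2 none (0) did. The Car4 call was kept in no other such fit than that without wild type replicate 2. The part of these shifts in the mitotic result was not tested. In bulk RNA, more dividing cells and more of these transcripts in each dividing cell cannot be told apart.

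Markers of other cells were also present. T cell markers fell for 17 of 19 genes, beside 5.97% of all tested genes. Their summed level was 383 to 444 CPM in wild type and 133 to 236 CPM in knockout. Of 12 B cell and plasma cell markers 6 fell, with sums of 65.2 to 139 CPM against 34.0 to 43.4 CPM. Leaving out wild type replicate 1, 2 or 3 gave 10, 3 or 4, and leaving out knockout replicate 2 or 3 gave 1. Cd8b1, a T cell co-receptor chain, fell by 2.40, and Pax5, a B cell transcription factor, fell by 2.16 on the log2 scale. Among 12 tested macrophage and dendritic cell markers 1 rose, Cd14 at 1.00, and 1 fell, Itgax at -0.72, with sums of 92.0 to 112 CPM and 70.3 to 246 CPM; 5 rose without knockout replicate 2. Leaving out replicate 2 or 3 of wild type or 1 or 2 of the knockout ended the Itgax call. Of 11 fibroblast and muscle markers 1 fell, the muscle filament gene Des at -1.32. Sums were 346 to 1000 CPM and 235 to 473 CPM, and the count was 3 without wild type replicate 3 and 0 without replicate 1 or 2 of wild type or 2 or 3 of the knockout. Pan-epithelial markers, 14 genes that label the intended cells, summed to 6169 to 7399 CPM in wild type and 7260 to 8787 CPM in knockout, and 1 of them, the keratin gene Krt18, rose, by 0.49. Without wild type replicate 1 or knockout replicate 1 that count was 3, and without knockout replicate 3 it was 0. No gene of these lists was at 0 in all libraries. Counts over genes were 25010618 to 28029583 in wild type and 11868000 to 17200931 in knockout, and mitochondrial transcripts took 45.3 to 48.4% and 34.7 to 36.3% of them. The part of these cells, of depth and of the mitochondrial share in the mitotic result was not tested.

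Of the chromatin-bound markers used to count cycling cells, one rose and the other did not pass. Top2a, the topoisomerase that untangles sister chromatids (chromosome 11, 98992943 to 99024189, minus strand of GRCm38), read 65, 79.6 and 70.5 CPM in wild type, here and below in replicate order. In the knockout it read 101, 146 and 105 CPM. All 3 knockout libraries were above all wild type libraries, with replicate 2 far above the others. The means were 71.7 ± 7.39 CPM and 117 ± 25 CPM (SD, n = 3). On the log2 scale Top2a rose by 0.71 ± 0.15 (SE), with an edgeR adjusted p of 0.0101.

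Mki67 encodes Ki-67, the coat of mitotic chromosomes and the standard stain for proliferation (chromosome 7, 135689784 to 135716361, minus strand). Its levels were 112, 140 and 137 CPM in wild type and 141, 167 and 129 CPM in knockout. The groups overlapped, since knockout replicate 3 lay below wild type replicates 2 and 3. The log2 fold change was 0.17 ± 0.12 (SE), and the edgeR adjusted p was 0.379.

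Cdk1 and its mitotic cyclins held some of the largest changes, with 3 of 7 genes higher, beside 9.43% of all tested genes. Their median log2 fold change was 0.59. Cdk1, the kinase of mitotic entry (chromosome 10, 69335146 to 69352938, minus strand), was at 15.8, 20.1 and 16.6 CPM in wild type and 25.1, 31.7 and 22.2 CPM in knockout. The groups did not overlap. It rose 1.51-fold, a log2 fold change of 0.59 ± 0.14 (SE) with an edgeR adjusted p of 0.0174. Without wild type replicate 3 or knockout replicate 2 the call was lost, and the highest adjusted p among the fits without 1 library was 0.0619.

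Ccna2 encodes cyclin A2, which serves both S phase and mitotic entry (chromosome 3, 36564865 to 36572150, minus strand). Its levels were 15.8, 17.7 and 15 CPM in wild type and 28.7, 39.0 and 32.3 CPM in knockout. The lowest knockout library was above the highest wild type library by more than the spread within wild type. The means were 16.2 ± 1.37 and 33.3 ± 5.20 CPM (SD, n = 3), and the log2 fold change of 1.04 ± 0.12 (SE) had an edgeR adjusted p of 0.000917. Exons of Ccna2 overlap those of Exosc9 on the opposite strand over 510 bases. Of its 50-base words 15.9% also occur in other genes, with Exosc9 as the main partner. Words were matched on either strand, so here and below such an overlap is itself counted among the shared words. The library kit keeps strand, but the strand setting of the counting is unknown here, so reads of such partners may not have been told apart.

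Both B-type cyclins were higher in every knockout library. Ccnb2, cyclin B2 (chromosome 9, 70407692 to 70421547, minus strand), read 10.3, 11.5 and 8.54 CPM in wild type and 17.1, 21.3 and 19.1 CPM in knockout. It rose by 0.92 ± 0.14 (SE) on the log2 scale with an edgeR adjusted p of 0.00216. Ccnb1, cyclin B1 (chromosome 13, 100778650 to 100786570, minus strand), read 11.9, 13.2 and 9.45 CPM and 16.6, 23.0 and 13.4 CPM. Its groups were separated only narrowly, by wild type replicate 2 and knockout replicate 3. Its log2 fold change of 0.62 ± 0.20 (SE), the largest among genes that did not pass, had an edgeR adjusted p of 0.0673; without knockout replicate 3 the adjusted p was 0.0409. A pseudogene copy, Ccnb1-ps, and other loci share 42.1% of its 50-base words, so its counts are uncertain.

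The Cdc25 phosphatases and Cks2 did not pass. Cdc25c, a phosphatase that removes the inhibitory mark on Cdk1, was low, at 2.95, 3.66 and 2.52 CPM in wild type and 3.81, 4.51 and 2.24 CPM in knockout. Knockout replicate 3 was the lowest of all 6 libraries, and the log2 fold change was 0.23 ± 0.26 (SE) with an edgeR adjusted p of 0.579. Cdc25b, the related phosphatase of late G2, had a log2 fold change of 0.20 and Cks2, a small Cdk-binding protein, 0.18. Neither group of 3 lay apart from the other for these genes, and Cks2 and Cdc25c share 29.7% and 22.2% of their 50-base words with other genes.

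Neither of the transcription factors of the G2/M program passed the test. Foxm1, the forkhead factor of G2 genes (chromosome 6, 128362967 to 128376146, plus strand), was at 8.18, 11.3 and 10.4 CPM in wild type and 7.83, 12.1 and 8.80 CPM in knockout. The highest and the lowest value were both knockout libraries. Its log2 fold change was -0.05 ± 0.18 (SE) with an edgeR adjusted p of 0.864. Mybl2, which encodes B-Myb (chromosome 2, 163054687 to 163084688, plus strand), had 5.66, 5.28 and 5.29 CPM against 6.54, 5.73 and 5.60 CPM. Wild type replicate 1 lay among the knockout values. Mybl2 differed by 0.14 ± 0.16 (SE) on the log2 scale, with an edgeR adjusted p of 0.567. Other genes share 23.8% of its 50-base words, with Gm3320 as the main partner. The median of this pair was 0.04, and at an unadjusted p under 0.05, and in DESeq2 and limma-voom at their adjusted p, the count was 0.

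**Figure D2:**
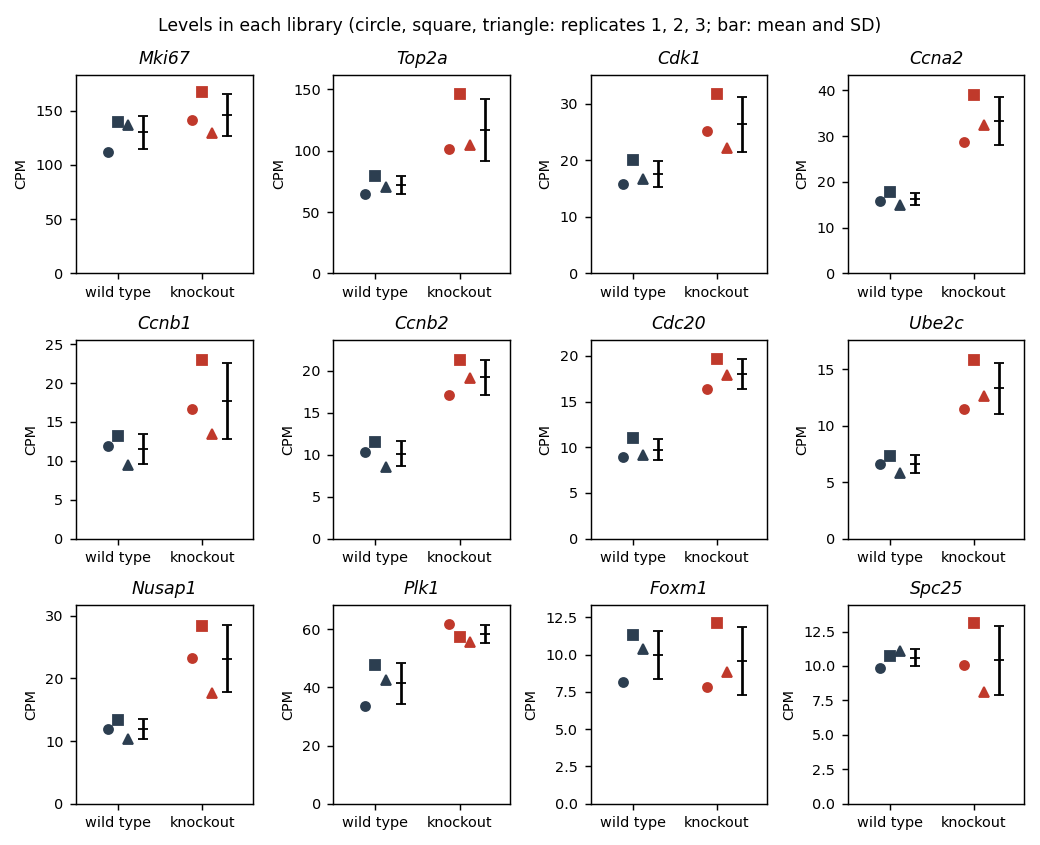
CPM in each library for 12 mitotic genes, with wild type in dark blue and knockout in red, replicates 1, 2 and 3 as circle, square and triangle, and the mean and SD (n = 3) beside them. Top2a, Cdk1, both B-type cyclins, Ccna2, Cdc20, Ube2c, Nusap1 and Plk1 have no overlap between the groups, and Mki67, Foxm1 and Spc25 do.

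In the spindle checkpoint 2 of 5 genes rose, beside 9.43% of all tested genes, with a median log2 fold change of 0.37. Bub3, the adaptor that brings the Bub kinases to kinetochores (chromosome 7, 131560222 to 131571895, plus strand), read 26.3, 20.5 and 20.9 CPM in wild type and 27.3, 32.8 and 33.0 CPM in knockout. Wild type replicate 1 came close to knockout replicate 1, and the groups did not overlap. The log2 fold change was 0.46 ± 0.12 (SE) with an edgeR adjusted p of 0.0259. Bub1, the checkpoint kinase, rose by 0.58 with an adjusted p of 0.0317. Both calls were lost without wild type replicate 3, knockout replicate 2 or knockout replicate 3, where the role's count was 0, and Bub1 was lost without wild type replicate 1 and Bub3 without wild type replicate 2. The highest adjusted p in those fits was 0.135 for Bub1 and 0.102 for Bub3.

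Mad2l1 encodes Mad2, the checkpoint protein that sequesters Cdc20 (chromosome 6, 66535390 to 66547220, plus strand). It had 15.6, 16.1 and 17.2 CPM in wild type and 14.1, 20.4 and 15.7 CPM in knockout. Knockout values lay on both sides of the wild type ones, and the log2 fold change was 0.04 ± 0.14 (SE) with an edgeR adjusted p of 0.871. Bub1b, which encodes BubR1, stood at a log2 difference of 0.37 (edgeR adjusted p of 0.0926), and Ttk, the Mps1 kinase, 0.36 (0.254).

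Among the mitotic kinases and the chromosomal passenger complex 4 of 6 tested genes rose, beside 9.43% of all genes, with a median of 0.51. Plk1, the Polo-like kinase of centrosome maturation and mitotic exit (chromosome 7, 122159439 to 122169873, plus strand), read 33.6, 47.8 and 42.5 CPM in wild type and 61.8, 57.1 and 55.7 CPM in knockout. Here knockout replicate 1 was the highest library, unlike most of these genes. Plk1 rose by 0.49 ± 0.12 (SE) on the log2 scale with an edgeR adjusted p of 0.0201, which became 0.0604 without knockout replicate 3. A processed copy, Plk-ps1, is the main partner for the 10.9% of its 50-base words found elsewhere.

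Aurka, the Aurora kinase of spindle poles, rose by 0.66 with an edgeR adjusted p of 0.0211. In the passenger complex the kinase Aurkb rose by 0.60 (0.0267) and the survivin gene Birc5 by 0.53 (0.0292), while the borealin gene Cdca8 had 0.40 (0.117). Incenp, the scaffold of the complex (chromosome 19, 9872296 to 9899551, minus strand), was at 18.5, 25.6 and 25.8 CPM in wild type and 22.0, 24.3 and 20.6 CPM in knockout. All 3 knockout values lay inside the wild type range. Its log2 fold change, -0.06 ± 0.13 (SE), was the lowest of the 59 and had an edgeR adjusted p of 0.789. The count of 4 became 2 without wild type replicate 1 and 1 without wild type replicate 3, knockout replicate 2 or knockout replicate 3. Aurka lost its call without wild type replicate 3 or knockout replicate 2, with an adjusted p of up to 0.0847. Aurkb and Birc5 lost theirs without replicate 1 or 3 of wild type or 2 or 3 of the knockout, with up to 0.121 and 0.116. Cdca8 passed without knockout replicate 1, at 0.0427.

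The arm of the anaphase-promoting complex that acts in mitosis changed at its activator and its ubiquitin-conjugating enzyme. Here 2 of 4 genes were higher, beside 9.43% of all tested genes, and the median was 0.54. Cdc20, the activator (chromosome 4, 118432901 to 118437352, minus strand), read 8.98, 11 and 9.19 CPM in wild type and 16.4, 19.6 and 17.9 CPM in knockout. The knockout libraries were tightly grouped and far from the wild type ones. The means were 9.73 ± 1.12 and 18 ± 1.6 CPM (SD, n = 3), and the log2 fold change of 0.88 ± 0.13 (SE) had an edgeR adjusted p of 0.00191. Other genes share 11.6% of the 50-base words of Cdc20, with Gm7856 as the main partner. Its exons overlap Elovl1 on the opposite strand over 53 bases.

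Ube2c encodes the enzyme that loads ubiquitin for the complex (chromosome 2, 164769898 to 164778822, plus strand). Its levels were 6.64, 7.35 and 5.81 CPM in wild type and 11.5, 15.8 and 12.6 CPM in knockout, with no overlap. It rose by 1.01 ± 0.16 (SE) on the log2 scale with an edgeR adjusted p of 0.00257. Its exons overlap Tnnc2 on the opposite strand over 592 bases, and 17.8% of its 50-base words are shared, with Tnnc2 as main partner.

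Securin and separase, the substrate and the protease that this arm releases, did not pass. Pttg1, the securin gene, had a log2 fold change of 0.19 with an edgeR adjusted p of 0.378. Espl1, the separase gene (chromosome 15, 102296266 to 102324357, plus strand), read 8.70, 13.5 and 12.1 CPM in wild type and 10.9, 13.7 and 9.20 CPM in knockout. The values of the genotypes were interleaved. The log2 fold change was -0.01 ± 0.19 (SE) with an edgeR adjusted p of 0.968.

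Centromere and kinetochore genes made up the largest role, and 0 of 11 passed, beside 9.43% of all tested genes. DESeq2 and limma-voom also gave 0. With library totals as the scale, which shifted all genes up as given above, Cenpe, Cenpi, Ndc80 and Nuf2 passed, with no filter Cenpe did, and at an adjusted p under 0.1 Cenpi did. Their median log2 fold change was 0.23, 10 of the 11 values were positive, and 4 genes had an unadjusted p under 0.05. For that unadjusted p no share of all tested genes is given. Cenpi, part of the inner kinetochore (chromosome X, 134308084 to 134362639, plus strand), had the smallest p, with 4.02, 5.24 and 4.81 CPM in wild type and 6.44, 6.58 and 6.32 CPM in knockout. The knockout libraries were almost level and all above the wild type ones. Its log2 fold change of 0.45 ± 0.17 (SE) had an edgeR adjusted p of 0.0833.

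Spc25, of the Ndc80 complex that grips microtubules (chromosome 2, 69193895 to 69206194, minus strand), had the largest p. It read 9.87, 10.7 and 11.1 CPM in wild type and 10.1, 13.1 and 8.08 CPM in knockout. Knockout replicates 2 and 3 were the highest and the lowest of the 6. The log2 fold change was -0.01 ± 0.16 (SE) with an edgeR adjusted p of 0.979. Its partners in the same complex, Ndc80, Nuf2 and Spc24, had log2 fold changes of 0.40, 0.40 and 0.17. Those of Cenpa, the histone H3 variant that marks the centromere, Cenpe, the kinesin of the outer kinetochore, and Cenpf, a large outer kinetochore protein, were 0.09, 0.31 and 0.20. For the inner kinetochore genes Cenph, Cenpk and Cenpn they were 0.23, 0.21 and 0.32. Nuf2 joined Cenpi as the 2 of the 11 genes of this role whose groups did not overlap, beside 19.7% of all tested genes.

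Of the mitotic kinesins 2 of 9 rose, beside 9.43% of all tested genes. All 9 values were positive, with a median of 0.42, and 47.2% of all tested genes had a positive value. Kif20a, the motor that brings the passenger complex to the midzone, had 8.28, 7.28 and 7.59 CPM in wild type and 12, 14.9 and 9.36 CPM in knockout. Knockout replicate 3 lay close to wild type. Kif20a rose by 0.66 ± 0.17 (SE) on the log2 scale with an edgeR adjusted p of 0.0212. Its exons overlap Cdc23 on the opposite strand over 1271 bases, and 31.2% of its 50-base words are shared, with Cdc23 as main partner. Kif4, the chromokinesin that also works at the midzone, rose by 0.48 (0.0353). Its exons overlap Pdzd11 on the opposite strand over 832 bases, and 16.2% of its 50-base words are shared, with Pdzd11 as main partner. Kif20a lost its call without wild type replicate 2, wild type replicate 3 or knockout replicate 2, with an adjusted p of up to 0.0927. For Kif4 this was so without replicate 1 or 3 of wild type or 2 or 3 of the knockout, with up to 0.114. The count of 2 was 1 without wild type replicate 1 or knockout replicate 3, and 0 without wild type replicate 3 or knockout replicate 2.

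Kif18a, the motor that dampens chromosome movement at the metaphase plate (chromosome 2, 109280738 to 109341747, plus strand), read 7.29, 9.12 and 7.59 CPM in wild type and 7.0, 9.44 and 8.0 CPM in knockout. The groups lay on top of each other, with a log2 fold change of 0.02 ± 0.16 (SE) and an edgeR adjusted p of 0.936. Kif11, the Eg5 motor that pushes spindle poles apart, had 0.52 (0.0932), Kif22, a chromokinesin, 0.47 (0.0539) and Kif2c, a microtubule depolymerase at centromeres, 0.42 (0.158). The remaining log2 fold changes were 0.30 for Kif23, a subunit of centralspindlin, 0.23 for Kif15, a spindle motor that can back up Kif11, and 0.14 for Kif20b, a motor of the midbody. Without wild type replicate 2, Kif11 had an adjusted p of 0.0401.

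Spindle assembly and cytokinesis was the role with the most calls, 6 of 8 beside 9.43% of all tested genes. All 8 genes had an unadjusted p under 0.05, for which no share of all genes is given. Nusap1, which bundles microtubules near chromosomes (chromosome 2, 119618298 to 119651244, plus strand), was at 11.9, 13.4 and 10.3 CPM in wild type and 23.3, 28.4 and 17.7 CPM in knockout. The knockout libraries differed among themselves, and all were above wild type. The log2 fold change of 0.96 ± 0.17 (SE) had an edgeR adjusted p of 0.00551.

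Hmmr and Tpx2, which act together in organising spindle poles, rose by 0.59 (edgeR adjusted p of 0.0158) and 0.46 (0.0329). In cytokinesis Ect2, the exchange factor for RhoA, rose by 0.54 (0.0101), its centralspindlin partner Racgap1 by 0.53 (0.0261) and the ring scaffold Anln by 0.44 (0.0379). Prc1, the bundler of midzone microtubules, had a log2 fold change of 0.39 (0.105). Aspm, the spindle pole protein with the largest p here (chromosome 1, 139454772 to 139494091, plus strand), read 13.7, 16.6 and 15.3 CPM in wild type and 17.9, 21 and 16.4 CPM in knockout. Knockout replicate 3 fell just below wild type replicate 2. Aspm differed by 0.28 ± 0.12 (SE) on the log2 scale, with an edgeR adjusted p of 0.142. Nusap1 and Ect2 kept their calls without each single library. Hmmr lost its call without knockout replicates 2 or 3, with an adjusted p of up to 0.0699, and Racgap1 without replicate 1 or 3 of wild type or 2 or 3 of the knockout, with up to 0.0929. Tpx2 kept its call only without knockout replicate 1 and Anln only without knockout replicate 3, with adjusted p of up to 0.144 and 0.146 in the other fits. The 6 calls became 3 without wild type replicate 1, wild type replicate 3 or knockout replicate 3, 2 without knockout replicate 2, 4 without wild type replicate 2 and 5 without knockout replicate 1.

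Condensin, the ring complex that compacts mitotic chromosomes, had 1 call among 5 genes, beside 9.43% of all tested genes, and a median of 0.19. Smc2, one of its ATPases (chromosome 4, 52439243 to 52488260, plus strand), read 19.0, 19.8 and 18.8 CPM in wild type and 24.5, 38.3 and 28.4 CPM in knockout. The wild type libraries were nearly level, and the knockout ones were higher and more spread. Smc2 rose by 0.66 ± 0.15 (SE) on the log2 scale with an edgeR adjusted p of 0.0141.

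Its partner ATPase Smc4 stood at a log2 difference of 0.19 (edgeR adjusted p of 0.239), and the regulatory subunits Ncaph and Ncapg had 0.48 (0.0583) and 0.17 (0.367). Ncapd2, another regulatory subunit (chromosome 6, 125168007 to 125191701, minus strand) was at 27.0, 35.0 and 33.0 CPM in wild type and 34.7, 40.2 and 30.2 CPM in knockout. The groups overlapped, and the log2 fold change was 0.15 ± 0.13 (SE) with an edgeR adjusted p of 0.450. Without knockout replicate 1, Ncaph also passed, with an adjusted p of 0.0461.

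Per kilobase of exon, the levels of these genes covered a wide range. In wild type the highest mean level belonged to Plk1, at 18.8 CPM per kb, followed by Cks2 at 17.5, Mki67 at 12.9, Smc4 at 9.26 and Top2a at 7.96. Among tested members Cenpk, at 0.608, and Cdc25c, at 0.618 CPM per kb, were the lowest. In knockout the order at the top was Plk1 at 26.5, Cks2 at 19.8, Mki67 at 14.5, Top2a at 13.0 and Ccnb2 at 12.5 CPM per kb. By this measure Top2a and Ccnb2 stood next to Mki67 in knockout, and Ccnb2 stood at 6.61 CPM per kb in wild type. The length used is the union of exons over all annotated transcripts, 9013 bases for Top2a and 10061 for Mki67. Their longest single transcripts have 5221 and 10061 bases, so the order of these genes depends on the length used.

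Set against Mki67 within each library, several genes kept the genotypes apart. For each 100 CPM of Mki67, Ccna2 had 14.1, 12.7 and 10.9 CPM in wild type and 20.4, 23.3 and 25 CPM in knockout. For Top2a the values were 57.9, 57.1 and 51.4 against 71.7, 87.3 and 81.2. Ccnb2, Cdc20, Ube2c and Nusap1 also had no overlap, with means of 7.89, 7.53, 5.14 and 9.26 in wild type and 13.2, 12.4, 9.12 and 15.7 in knockout. These 6 genes were chosen after their values were seen, so the ratios are a description. Relative to Mki67, each of the 6 was higher in every knockout library than in any wild type library.

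Single libraries shaped the pattern in common across roles. Knockout replicate 2 had the highest level of all 6 libraries for 53 of the 59 members. It was the highest of the 3 knockout libraries for 55, as it was for 30.3% of all tested genes. Wild type replicate 1 was the lowest of all for 40 members, and the lowest wild type library for 44, as it was for 35.7% of all genes. The label that names DTT belongs to that library, and the part of the wash was not tested. Expressed as log2 CPM minus each gene's mean over the libraries, the median over members was -0.37, -0.03 and -0.17 in the wild type libraries, in replicate order, and 0.08, 0.42 and 0.05 in knockout. The summed level of the members was 882, 1095 and 1010 CPM in wild type and 1210, 1530 and 1179 CPM in knockout. Every knockout library was above every wild type library in both measures, but wild type replicate 2 and knockout replicate 3 lay closer to each other than to the extremes of their own groups. The median fold change over the members was 0.29 without knockout replicate 2 and 0.31 without wild type replicate 1. Knockout replicate 2 was also the highest knockout library for 13 of the 17 tested crypt base and progenitor markers, 8 of the 10 that rose among them, although their summed levels were close, and for 30 of the 45 DNA replication genes.

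**Figure D3:**
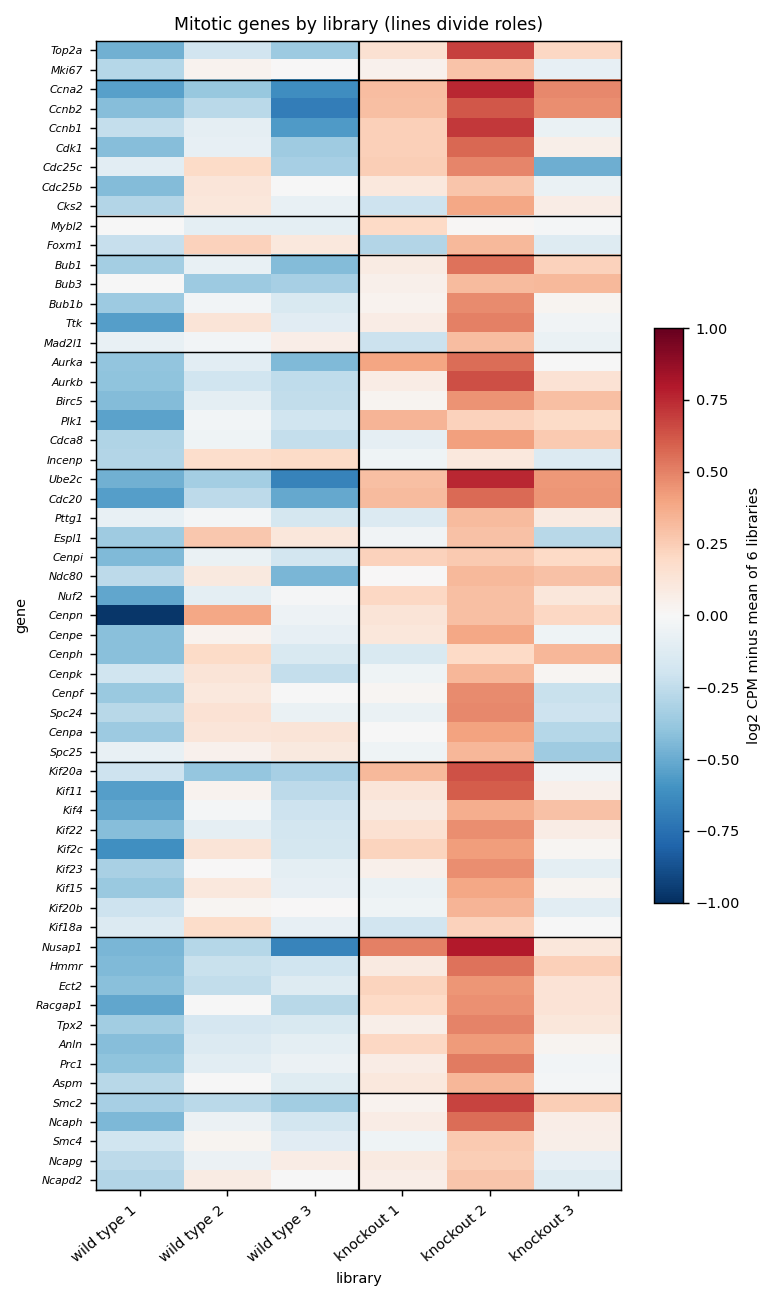
Log2 CPM of each of the 59 tested mitotic genes minus its mean over the 6 libraries, with genes in rows grouped by role and libraries in columns, blue for lower and red for higher. The column of knockout replicate 2 is red for nearly every gene, being the highest library for 53 of 59, and that of wild type replicate 1 is blue for most, being the lowest for 40.

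The members that rose had a lower median length than the rest. Their median exonic length was 4.35 kb, with a range of 1.53 to 9.06 kb, and that of the members that did not pass was 5.46 kb, with a range of 0.692 to 15.4 kb. Across the 59 members the log2 fold change and the log2 length had a Pearson r of -0.271 and a Spearman rho of -0.297. Across 16778 tested genes with a length, r was 0.0701 and rho 0.0321. Genes are not independent replicates, all points share the same 6 libraries, and no test is attached. With a correction for length in the fit, 21 members rose. Cenpf and Mki67 were long with small changes, and Ccnb2, Cdc20 and Ube2c were short and rose. The reverse was also found: Top2a and Anln were long and rose, and Cks2, Cenph and Pttg1 were short and did not pass. Exonic length here is the union of exons over all annotated transcripts. The longest single transcripts of Top2a and Anln have 5221 and 4605 bases, so these genes are long by the union only.

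**Figure D4:**
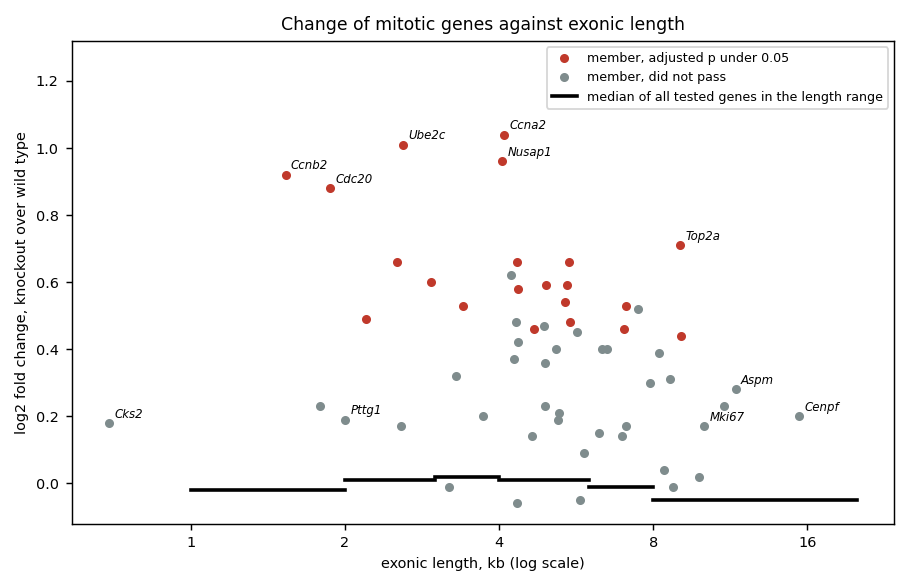
Log2 fold change of the 59 tested mitotic genes, knockout over wild type, against exonic length in kb on a log axis, with red points for genes that rose and black lines for the median of all tested genes in each length range. Exonic length is the union of exons over all transcripts. Ccnb2, Cdc20 and Ube2c combine a short exonic length with large changes, and Ccna2 and Nusap1 lie near the middle. Top2a is long by this measure and rose, and the lines for all genes stay between -0.05 and 0.02.

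By promoter letters, CHR matches were present for 15 of the 17 members that rose and have a promoter entry (88.2%) and for 21 of 33 that did not pass (63.6%). Both CHR and CCAAT were present for 14 of the 17 (82.4%) and 17 of the 33 (51.5%). E2F letters were present for 3 of the 17 and 10 of the 33. Of all tested genes that rose, 18.3% held a CHR match. These shares are given with no test.

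Genes of the same pathway outside the group were counted in the same way. Of all tested genes 9.43% rose and 5.97% fell, the shares to set beside each list below. Without wild type replicate 1, 2 or 3 the share that rose was 10%, 6.56% or 5.61%. Without knockout replicate 2 or 3 it was 5.05% or 3.98%. Among 23 further mitotic kinases and Cdk1 regulators 8 rose and 0 fell, with a median log2 fold change of 0.35. The smallest p was that of Melk, a kinase of dividing cells, which rose by 0.97 on the log2 scale with an edgeR adjusted p of 0.00261. Leaving out wild type replicate 2 gave 5 and wild type replicate 3 gave 4, while leaving out knockout replicate 2 gave 3 and knockout replicate 3 gave 2. Of 40 further spindle, centrosome and cytokinesis genes 6 rose and 0 fell, with a median of 0.16, led by Fam83d, which recruits casein kinase to the spindle, at 0.90 (0.00934). There 3 rose without wild type replicate 1, wild type replicate 2 or knockout replicate 3, and 2 without wild type replicate 3 or knockout replicate 2, while 2 fell without wild type replicate 1.

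Of 37 tested kinetochore and checkpoint genes outside the group 1 rose, beside 9.43% of all tested genes, and 0 fell, with a median of 0.16. With no filter on low counts 4 rose, beside 6.8% of all genes. The call was Trip13, an ATPase that remodels Mad2, at 0.71 (edgeR adjusted p of 0.0247), and the count was 0 without wild type replicate 2, wild type replicate 3, knockout replicate 2 or knockout replicate 3. Of 16 core subunits and partners of the anaphase-promoting complex 3 rose and 0 fell, beside 9.43% and 5.97% of all tested genes. The median was 0.10, and Anapc5 rose by 0.42 (0.0141). The count of 3 became 1 without wild type replicate 3 and 0 without knockout replicate 2 or knockout replicate 3. Of 16 cohesin and condensin II genes 3 rose and 0 fell, with a median of 0.13 and with the cohesin acetyltransferase Esco2 at 0.64 (0.0217). There 0 rose without wild type replicate 3, knockout replicate 2 or knockout replicate 3.

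With library totals as the scale, 13 of these 37 kinetochore and checkpoint genes rose, 17 of the 40 spindle genes, 15 of the 23 kinases and regulators, 10 of the 16 anaphase-promoting complex genes and 14 of the 16 cohesin and condensin II genes, beside 32.1% of all genes.

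The DREAM complex and the E2F factors, regulators of these genes, gave 1 call among 18, beside 9.43% of all tested genes. It was Tfdp1, the dimer partner of E2F proteins, at 0.40 (edgeR adjusted p of 0.0115). The median of the 18 was 0.11. Genes of DNA replication, the preceding phase of the cycle, gave 11 calls among 45, beside 9.43% of all tested genes. None (0) was lower, and their median was 0.32. Mcm6, a subunit of the replicative helicase, rose by 0.80 (0.00132). That count was 7 without wild type replicate 2, and 5 without wild type replicate 3, knockout replicate 2 or knockout replicate 3. With library totals the counts were 10 of 18 and 33 of 45, beside 32.1% of all genes.

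**Figure D5:**
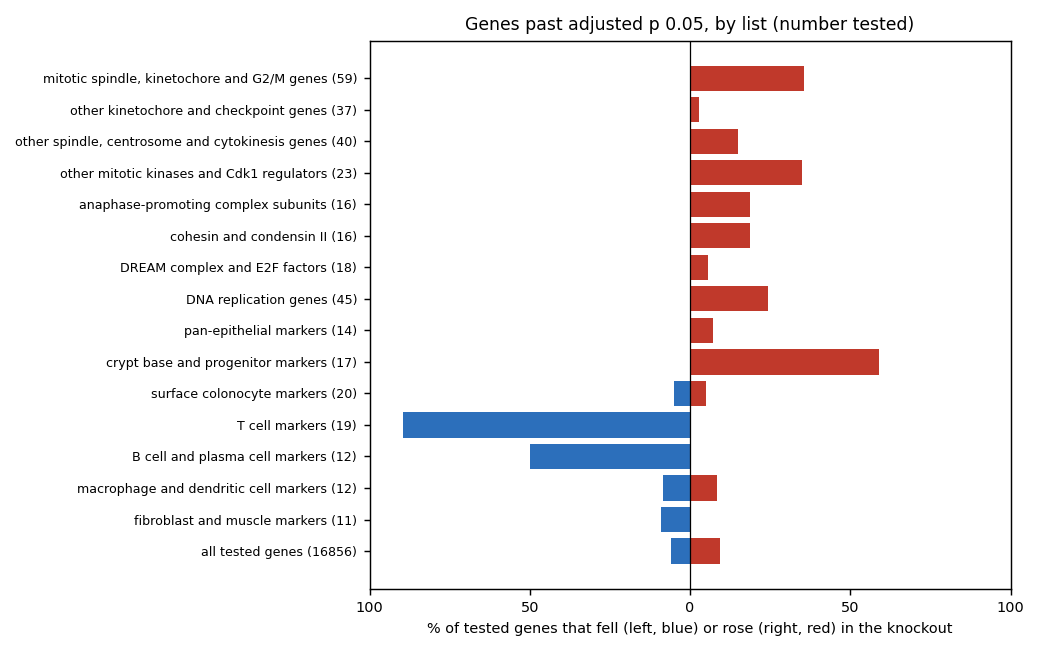
Percent of tested genes of each list that fell (left, blue) or rose (right, red) at an edgeR adjusted p under 0.05, with the number tested in brackets and all 16856 tested genes in the bottom row. The mitotic genes stand at 35.6% risen and none fallen beside 9.43% and 5.97% of all genes.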

How the data were processed

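Per the submitters' processing notes, the authors used Trimmomatic 0.39, STAR, HTSeq and DESeq2 with build GRCm38. Strand setting and annotation release were not given in the sources used here. By kit, libraries were stranded and depleted of ribosomal RNA, per the labels. The deposited count table holds raw counts for 46078 genes, not normalised. A deposited comparison table of the authors gives log2 fold changes and p-values from DESeq2, used only as a description. Its normalised signal columns, deposited by the authors, were not used for tests.

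The HTSeq summary lines, 53.6 to 60.1% of the reads counted, were left out. Genes were kept by filterByExpr (minimum count 10, minimum total 15), given TMM factors and fitted with genotype as the only term; the robust quasi-likelihood test of edgeR was used, 2-sided, with Benjamini-Hochberg adjustment over 16856 genes at 0.05. SE is the log2 fold change divided by the square root of F. The log2 CPM behind the per-library medians over members used a prior count of 2. The heatmap instead added a small constant to CPM before the log. Versions were DESeq2 1.42.0, limma 3.58.1, edgeR 4.0.16 and R 4.3.3, and the fit was tested on simulated data. Symbols, positions and exonic lengths came from GENCODE M21 (GRCm38), and overlaps and shared 50-base words were computed from it. A floor of 3 counts was 0.113 to 0.240 CPM per library and covers counting error only. All library pairs differed by more than sampling noise.

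Members and lists were chosen with earlier results of these data known. Full values were given, by rule, for Mki67, Top2a, Cdk1, Ccnb1 and the genes with the smallest and the largest p in each role, and for each list for the called gene with the smallest p in each direction. Ccnb2, Ube2c and the ratios to Mki67 were added after their values were seen. Alternatives were other scaling factors, nuclear protein-coding genes only, DESeq2, limma-voom, other filters, a replicate block, a length offset, thinned counts, other thresholds and each library left out.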

Additional observations from a re-analysis of the deposited data

How the results depend on the processing

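Members that rose numbered 15 to 28 of 59 under all but 2 of the 14 alternatives that kept every library. In these fits 6.35 to 13.3% of all tested genes rose. Library totals alone gave 41, beside 32.1% of all genes, with a median log2 fold change of 0.68. The glmTreat test against a 1.2-fold change gave 6, beside 2.95% of all genes. Without single libraries the count ran from 9 to 22 and the median from 0.29 to 0.50, while 3.98 to 10% of all tested genes rose. The number that fell was 0 in every fit. Of all genes, 2596 changed, and 5835 with library totals, 3942 at an adjusted p under 0.1, 861 with glmTreat and 1124 to 2686 without single libraries. Of these calls 61.2% were higher in knockout, 45.4% with upper-quartile factors and 92.8% with library totals. Among 22 genes given in full, fits without single libraries kept the call in 105 cases, lost it in 10, gained it in 1 and reversed a small change in 16, and the other alternatives gave 281, 6, 10 and 11. All reversals were in 6 genes with log2 fold changes near 0. Foxm1 was 0.224, Incenp 0.217, Espl1 0.265 and Spc25 0.278 with library totals. Mad2l1 was -0.03 with upper-quartile factors and with thinned counts, and Kif18a -0.046 and -0.102, and -0.009 with nuclear protein-coding genes. Spc25 was 0.002 with no filter and Espl1 0.004 with the replicate block and length offset. Without single libraries Foxm1 ran from -0.265 to 0.086, Incenp from -0.178 to 0.037, Espl1 from -0.175 to 0.150, Spc25 from -0.203 to 0.138, Kif18a from -0.097 to 0.155 and Mad2l1 from -0.129 to 0.159. The causes were not tested. Deviations from the group means had correlations of -0.0102, -0.117 and -0.103 between wild type and knockout libraries of equal replicate number. For unequal numbers they ran from -0.118 to 0.219. Deviations within a group of 3 depend on each other, so these values cannot decide whether libraries were paired. A replicate block gave 24 members that rose, beside 7.08% of all genes, and 2061 changed genes. SEs were 0.31 for Cenpn and 0.26 for Cdc25c, both weakly expressed, beside a median of 0.15; the part of depth was not tested.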
